A study of Mus musculus with 12 samples.

Results

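The 37 genes described here mark the cells that line blood and lymphatic vessels, and they were followed in fetal membranes of mice lacking biglycan and decorin. They were taken as a fixed list of symbols, and all 37 were found among the 48795 genes of the count table. By role, 24 are general markers of blood vessel endothelium, 4 are arterial, 1 is venous, 2 form the apelin ligand and receptor pair, 4 are lymphatic and 2 are scavenger receptors of sinusoidal endothelium. At E18, 21 of the 37 genes were higher and 4 were lower in the double knockout than in the libraries labelled as E18 wild type (E18 WT-labelled), beside 20.5% and 21.8% of all tested genes. At E12, 0 of the 37 passed the same test, beside 0.353% of all tested genes.

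Endothelial cells are specified and maintained by transcription factors of the ETS and SOXF families, which act on genes for cell junctions, receptors and vessel-wall proteins. Arterial endothelium is marked by Notch ligands, ephrin-B2 and gap junction proteins, and venous endothelium by the receptor of ephrin-B2. Lymphatic endothelium is set apart by the transcription factor Prox1 and carries Lyve1 and podoplanin on its surface. In the mouse, the yolk sac is one of the fetal membranes and carries its own blood vessels.

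The libraries were made from polyA-selected RNA of dissected fetal membrane, 3 for each of 4 groups. The E18 double knockout group (E18 DKO) carried the combined knockout of biglycan and decorin on a background given as C3H and C57BL/6, at embryonic day 18, and its counterpart was wild type on C3H with the same stated age. The E12 double knockout group (E12 DKO) had the same alleles and background at embryonic day 12, and E12 wild type (E12 WT) was C3H at embryonic day 12. Background strain therefore differed together with genotype, and their effects cannot be told apart. The labels do not say whether libraries came from separate animals or litters, or whether membranes were pooled, so the p-values measure the spread between these libraries, which may be partly technical. In bulk RNA of this kind, fewer endothelial cells and less RNA per endothelial cell cannot be told apart.

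Total counts ranged from 19967593 to 33065424 per library. Bgn and Dcn, the targeted genes, stayed at or below 25.1 and 8.44 CPM (counts scaled to library size) in all 6 DKO libraries, against at least 223.1 and 197.5 CPM in all 6 WT libraries. The embryonic share of beta-globin counts was 1.33% to 2.67% in E18 DKO, but 74.8% to 87.8% in the E18 WT-labelled libraries, close to the 82.3% to 85.1% of E12 DKO. The E18 WT-labelled libraries thus carried the globin pattern of an early stage, and genotype and developmental age cannot be told apart in any comparison that sets them against E18 DKO. E12 WT 1 stood apart from its group, with an embryonic share of 14.8% against 95.1% and 97.1% in E12 WT 2 and E12 WT 3, and 21.2% of the counts of E12 WT 3 were mitochondrial. E18 WT-labelled library 3 held 1074 CPM of trophoblast and decidua markers, summed over 10 genes. As for the tissue, summed CPM of 12 visceral yolk sac endoderm genes reached 54766 or more in every library, and 10 amnion-type epithelial genes summed to 6055 to 7528 CPM in E18 DKO, 2402 to 3046 CPM in the E18 WT-labelled libraries, 2303 to 2657 CPM in E12 DKO and 3405 to 5229 CPM in E12 WT. The amnion-type sum was thus higher in DKO at E18 and lower in DKO at E12, but the genes of the list did not all follow it. Genes named here were chosen after their values were seen. Krt18 made up much of the sum, with 43242 to 52448 reads in E18 DKO and 21407 to 27444 in the E18 WT-labelled libraries. Gabrp went the other way, with 3 to 4 reads against 120 to 6564, as did Tfap2a, with 19 to 22 against 99 to 216. In DKO against WT, 5 of the 10 had a positive log2 fold change at E18 (median 0.05), beside 48.4% of all tested genes. At E12, 1 of the 10 did (median -0.84), beside 44.7%. The part of this tissue in the results was not tested. The general endothelial markers Pecam1, Cdh5 and Tie1 were present in all 12 libraries, at 21.9 CPM or above.

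Levels between genes were compared as CPM per kilobase of gene model. Plvap, the protein of the diaphragms that span endothelial fenestrae, had the highest level of the 37 genes in every group, at 88.3 ± 15.4 CPM per kilobase in E18 DKO, 37.1 ± 3.48 in the E18 WT-labelled libraries, 43.2 ± 1.25 in E12 DKO and 61.4 ± 11.8 in E12 WT (SD, n = 3 each). Lyve1 had rank 3 in each group, and Prox1 and Mmrn1 took the last 2 places in each. The order was less fixed in between: Robo4 ranked 11 in E18 DKO, but 27 in the E18 WT-labelled libraries, 26 in E12 DKO and 25 in E12 WT. Ephb4 moved the other way, ranking 23 in E18 DKO against 6 in the E18 WT-labelled libraries, 7 in E12 DKO and 11 in E12 WT. The median coefficient of variation of the 37 genes within a group was 23.4% in E18 DKO, 19.3% in the E18 WT-labelled libraries, 11.8% in E12 DKO and 22.4% in E12 WT.

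**Figure D1:**
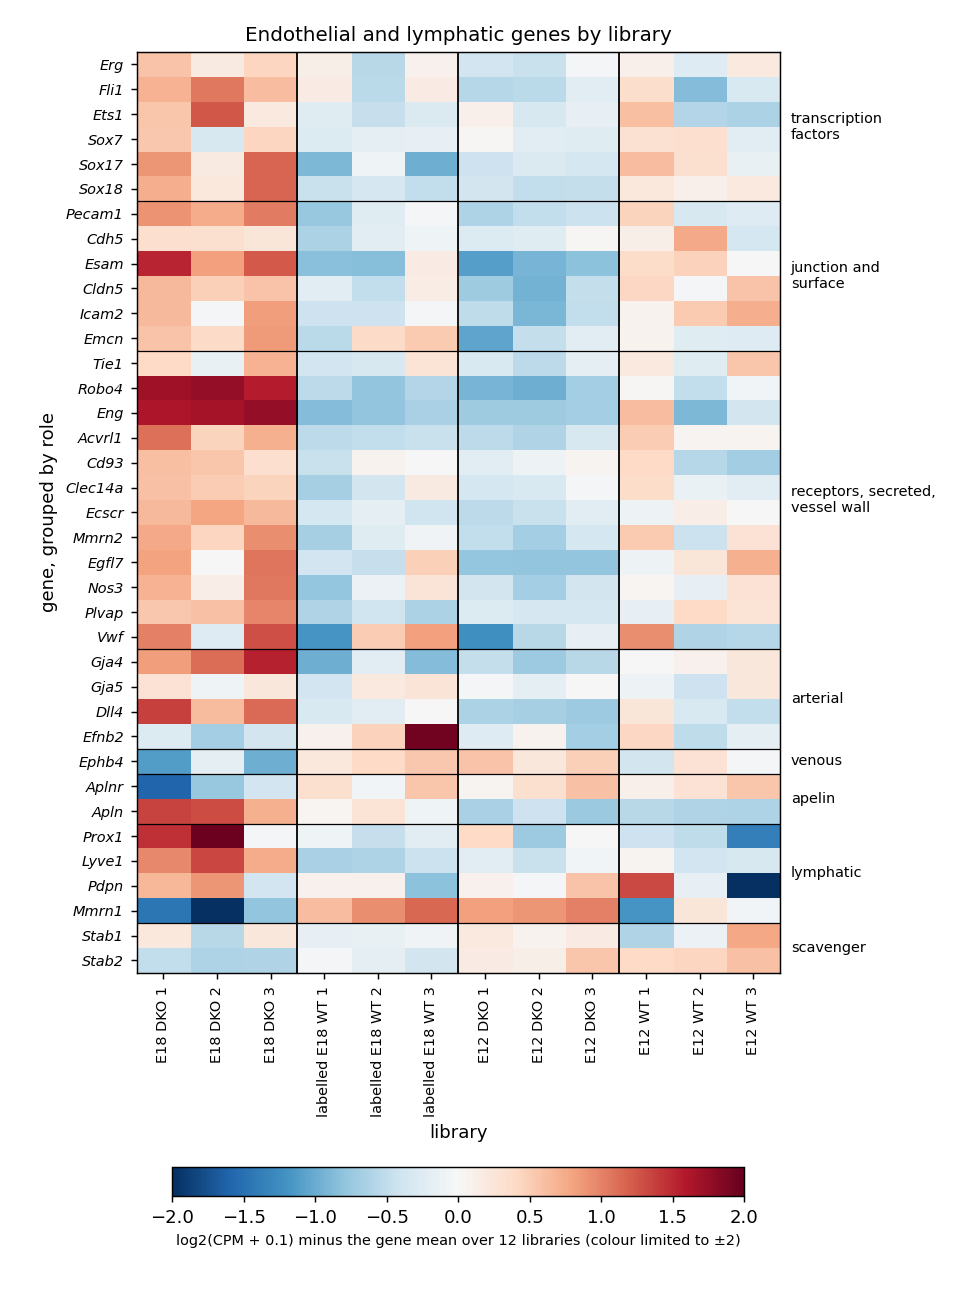
Levels of the 37 genes (rows, grouped by role) in the 12 libraries (columns); colour gives log2(CPM + 0.1) minus the mean of the gene over the 12 libraries, limited to 2 in either direction. The 3 E18 DKO columns are red for most blood vessel genes and blue for Ephb4, Aplnr and Mmrn1, and the Efnb2 row is darkest in E18 WT-labelled library 3, at 123.9 CPM.

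The first question was how these genes differ between DKO and WT membranes at the later labelled stage. A gene was called when its adjusted p fell under 0.05 in edgeR's quasi-likelihood test, with adjustment over all 18153 tested genes, and all 37 genes passed the filter on low counts. In E18 DKO against the E18 WT-labelled libraries, 25 of the 37 genes were called (67.6%), beside 42.3% of all tested genes. The 21 higher genes stand beside a background of 20.5%, and the 4 lower genes beside 21.8%. The groups did not overlap for 22 genes that were higher and 5 that were lower, beside 27.8% and 29.1% of all tested genes. The median log2 fold change was 0.82 over the 37 genes and -0.04 over all tested genes. Summed over the 37 genes, the level was 1893 to 2032 CPM in E18 DKO and 951.5 to 1250.3 CPM in the E18 WT-labelled libraries, so the groups did not overlap. The 24 general blood vessel genes all had a positive log2 fold change, also when libraries were scaled by total counts alone, and 16 of them were called higher and 0 lower.

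Scaling by total counts alone, without TMM factors, lowered the median log2 fold change of all genes by 0.36, gave a median of 0.44 over the 37 genes and changed the balance of calls. Under it 14 of the 37 genes were higher and 5 lower, beside 13.1% and 33.1% of all genes, while 2382 of 8397 called genes were higher, against 3725 of 7678 with TMM. The 7 genes that lost a higher call were Fli1, Ets1, Cldn5, Icam2, Clec14a, Nos3 and Prox1, with edgeR adjusted p of 0.0633 to 0.228. Those 7 and Efnb2 were also the 8 genes that lost the call in at least 1 of the 12 fits that each left out 1 library. The other 17 calls, 14 higher and 3 lower, held in all 12 of these fits. Without E12 WT 1 and E18 WT-labelled library 3 together, the counts were 23 higher and 5 lower, beside 24.7% and 24.8% of all genes.

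The transcription factors were higher as far as they were called. Sox17, a SOXF factor tied to arterial identity, had 19.2, 11.7 and 23.1 CPM in E18 DKO and 5.46, 9.76 and 5.17 CPM in the E18 WT-labelled libraries. These groups did not overlap, and the log2 fold change was 1.40 ± 0.32 (SE; edgeR adjusted p = 0.00566). Sox18, a SOXF factor of blood and lymphatic vessels, had 17.8, 12.4 and 24.3 CPM in E18 DKO and 7.88, 8.5 and 7.59 CPM in the E18 WT-labelled libraries, a log2 fold change of 1.18 ± 0.23 (edgeR adjusted p = 0.00238). For both, E18 DKO 2 was the lowest of its group. Ets1, an ETS factor also made by lymphoid and stromal cells, had its highest value in that same library, with 72.8, 117.1 and 56.5 CPM in E18 DKO and 41.8, 35.7 and 40.2 CPM in the E18 WT-labelled libraries. Its log2 fold change was 1.07 ± 0.35 (edgeR adjusted p = 0.0281), and the call was lost without E18 DKO 2 or any 1 of the E18 WT-labelled libraries (adjusted p 0.0638 to 0.122). Fli1, an ETS factor of endothelial and blood cells, was just past the threshold, with a log2 fold change of 0.85 ± 0.31 (edgeR adjusted p = 0.0469), and lost its call in 10 of the 12 leave-one-out fits, all but those without E12 WT 1 or E12 WT 2 (adjusted p 0.0502 to 0.16). Erg, the ETS factor most closely tied to endothelium, had 13.6 to 17.8 CPM in E18 DKO and 8.12 to 13.1 CPM in the E18 WT-labelled libraries, and was not called (log2 fold change 0.49 ± 0.24, adjusted p = 0.119). The remaining SOXF gene, Sox7, overlapped between the groups and was not called either (log2 fold change 0.48 ± 0.27, adjusted p = 0.168).

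Among the junction and surface proteins, Esam and Pecam1 had the largest differences. Esam, a tight junction adhesion molecule of endothelium and platelets, had 59.4, 36.4 and 48.3 CPM in E18 DKO against 11.6, 11.4 and 23.1 CPM in the E18 WT-labelled libraries. It was 3.12-fold higher (log2 fold change 1.64 ± 0.29, edgeR adjusted p = 0.00139). Pecam1, the adhesion molecule of endothelial borders, had 99.9, 90.2 and 111.004 CPM in E18 DKO and 31.8, 45.6 and 53.02 CPM in the E18 WT-labelled libraries, with a log2 fold change of 1.21 ± 0.24 (edgeR adjusted p = 0.00246). Neither gene overlapped between the groups. Cdh5, the cadherin of endothelial adherens junctions, also did not overlap but differed less. It had 99.2, 97.9 and 93.6 CPM in E18 DKO and 50.8, 68.2 and 74.4 CPM in the E18 WT-labelled libraries, and it was not called (log2 fold change 0.59 ± 0.25, adjusted p = 0.0799). Cldn5, the main claudin of endothelial tight junctions, and Icam2, an endothelial ligand of leukocyte integrins, were called with log2 fold changes of 0.73 ± 0.22 and 0.82 ± 0.27 (edgeR adjusted p = 0.0206 and 0.0314). Cldn5 lost its call without E18 DKO 1 or without E18 WT-labelled library 1 or 2 (adjusted p 0.0624 to 0.0825), and Icam2 did so without E18 DKO 1 or 3 or without E18 WT-labelled library 1 or 2 (adjusted p 0.0908 to 0.113). The sialomucin Emcn, a marker of venous and capillary endothelium, overlapped between the groups (log2 fold change 0.42 ± 0.30, adjusted p = 0.277).

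The largest increases among the 37 genes were in receptors. Eng, the TGF-beta and BMP co-receptor endoglin, had 300.1, 310.3 and 328.3 CPM in E18 DKO and 53.5, 56.3 and 61.9 CPM in the E18 WT-labelled libraries. The groups were far apart, and Eng was 5.46-fold higher (log2 fold change 2.45 ± 0.31, edgeR adjusted p = 0.000264). Robo4, a roundabout receptor of endothelium that stabilises the vessel barrier, had 64.5, 67.3 and 58.7 CPM in E18 DKO and 13.7, 11.4 and 13.2 CPM in the E18 WT-labelled libraries. It was 4.98-fold higher (log2 fold change 2.32 ± 0.18, edgeR adjusted p = 3.37e-05). The fits without 1 library gave 2.24 to 2.37 for Robo4. Acvrl1, the ALK1 receptor that signals together with endoglin, was also higher, with 108.8, 68.8 and 82.9 CPM in E18 DKO and 35.2, 35.9 and 37.3 CPM in the E18 WT-labelled libraries (log2 fold change 1.27 ± 0.19, edgeR adjusted p = 0.000674). By the coordinates of the count table, Robo4 (chr9:37401897-37414023) and Esam (chr9:37528078-37538319) are near each other on the plus strand of mouse chromosome 9, and Fli1 and Ets1 lie on the same chromosome at chr9:32422204-32542861 and chr9:32636221-32757820 (GRCm38).

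Of the 9 remaining vessel-wall genes, 5 were called higher, and Cd93, Tie1, Egfl7 and Vwf were not called. Plvap had 155.001, 160.7 and 210.5 CPM in E18 DKO and 70.8, 81.6 and 68.7 CPM in the E18 WT-labelled libraries, without overlap (log2 fold change 1.25 ± 0.18, edgeR adjusted p = 0.000527). Mmrn2, an extracellular matrix protein of endothelium, and its receptor Clec14a had log2 fold changes of 1.04 ± 0.26 and 0.76 ± 0.23 (edgeR adjusted p = 0.00916 and 0.0199), and Clec14a lost the call without E18 DKO 1 or without E18 WT-labelled library 1 or 2 (adjusted p 0.0594 to 0.0809). Another receptor of Mmrn2, Cd93, did not overlap between the groups but was not called, at 53.2 to 63.98 CPM in E18 DKO and 30.9 to 43.9 CPM in the E18 WT-labelled libraries (log2 fold change 0.62 ± 0.27, adjusted p = 0.0843). Ecscr, a small endothelial surface receptor, had a log2 fold change of 1.02 ± 0.16 (edgeR adjusted p = 0.000685). Nos3, the endothelial nitric oxide synthase, was called at 0.83 ± 0.30 (edgeR adjusted p = 0.0457) although its groups overlapped. That call was lost without any 1 of the E12 DKO libraries, without E18 DKO 1 or 3, or without E18 WT-labelled library 1 or 2 (adjusted p 0.0602 to 0.169). The receptor Tie1 and the secreted protein Egfl7 overlapped between the groups and were not called (log2 fold changes 0.47 ± 0.27 and 0.75 ± 0.32, adjusted p = 0.179 and 0.0794); Egfl7 shares its strand with Mir126a and Gm20532, so its count is uncertain. Vwf, the clotting factor carrier stored in endothelium and platelets, ranged widely, from 25.03 to 73.3 CPM in E18 DKO and from 13.2 to 53.1 CPM in the E18 WT-labelled libraries (adjusted p = 0.472).

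**Figure D2:**
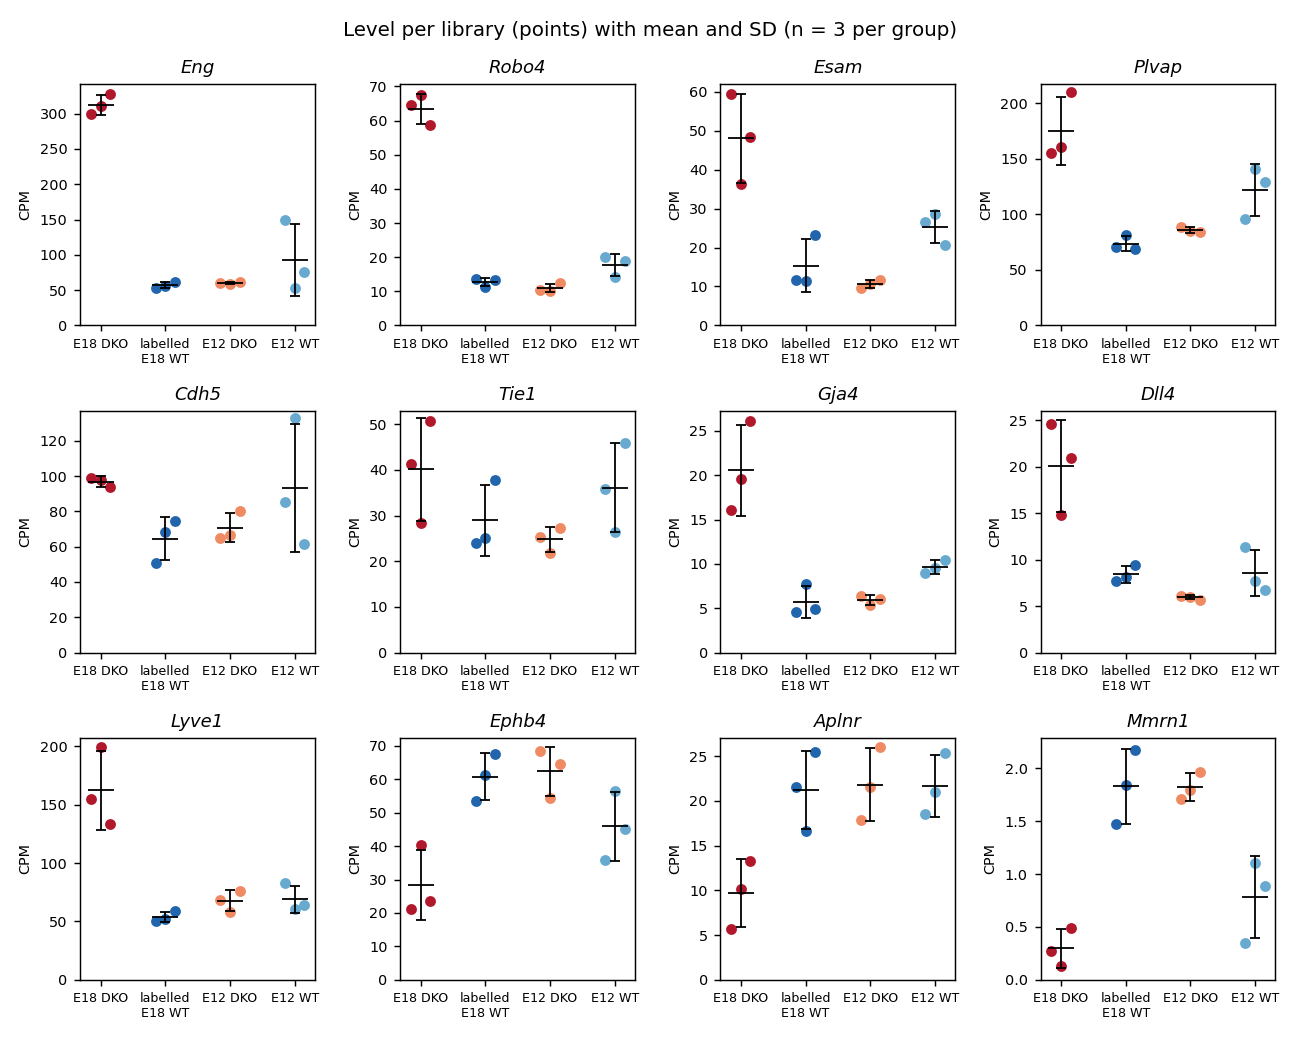
CPM of 12 of the genes in each library (points), with the mean and SD of the 3 libraries of each group in black; each panel has its own axis from 0. Eng and Robo4 sit at 300.1 to 328.3 and 58.7 to 67.3 CPM in E18 DKO, above all other libraries, while Ephb4, Aplnr and Mmrn1 have their lowest group mean in E18 DKO.

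The arterial genes split. Gja4, the connexin 37 of arterial gap junctions, had 16.05, 19.5 and 26.1 CPM in E18 DKO against 4.52, 7.76 and 4.88 CPM in the E18 WT-labelled libraries. It was 3.59-fold higher (log2 fold change 1.84 ± 0.26, edgeR adjusted p = 0.000483). Dll4, the Notch ligand of arterial and sprouting endothelium, had 24.6, 14.8 and 20.9 CPM in E18 DKO and 7.73, 8.12 and 9.44 CPM in the E18 WT-labelled libraries (log2 fold change 1.26 ± 0.25, edgeR adjusted p = 0.00268). Both genes separated the groups. Gja5, the connexin 40 of arteries and cardiac muscle, overlapped, with 34.2 to 44.7 CPM in E18 DKO and 27.8 to 43.8 CPM in the E18 WT-labelled libraries, a log2 fold change of 0.11 ± 0.21 (adjusted p = 0.715) whose sign turned to -0.26 under scaling by total counts alone and to -0.08 without E18 WT-labelled library 1. The ratio of Gja4 to Gja5 counts, which no scaling touches, was 0.359, 0.571 and 0.609 in E18 DKO and 0.163, 0.187 and 0.112 in the E18 WT-labelled libraries.

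Efnb2, the arterial ephrin ligand, was lower, with 26.8, 20.2 and 24.9 CPM in E18 DKO and 34.3, 44.4 and 123.9 CPM in the E18 WT-labelled libraries. The high value of E18 WT-labelled library 3 weighed on the result. The log2 fold change was -1.49 ± 0.44 (edgeR adjusted p = 0.0181) with that library and -0.72 (adjusted p = 0.0818) without it, and the call was also lost without E18 DKO 2 (adjusted p = 0.0606). Trophoblast and decidua markers were highest in that library too, at 1074 CPM summed over 10 genes against 10.3 CPM in the lowest library of its group, and their part in the Efnb2 value was not tested.

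Ephb4, the venous receptor of ephrin-B2, fell in contrast to most of the endothelial genes. It had 21.2, 40.3 and 23.5 CPM in E18 DKO and 53.6, 61.3 and 67.5 CPM in the E18 WT-labelled libraries, without overlap. The log2 fold change was -1.10 ± 0.25 (edgeR adjusted p = 0.00556), and it lay between -1.44 and -0.93 over the fits with 1 library left out. Counted against Cdh5 of the same library, Ephb4 had a ratio of 0.214, 0.411 and 0.252 in E18 DKO and 1.05, 0.898 and 0.907 in the E18 WT-labelled libraries.

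The apelin pair moved in opposite directions. Apln, the peptide ligand, had 27.3, 26.4 and 17.5 CPM in E18 DKO and 10.9, 12.9 and 10.1 CPM in the E18 WT-labelled libraries (log2 fold change 1.07 ± 0.21, edgeR adjusted p = 0.00253). Its receptor Aplnr, enriched in venous and lymphatic progenitors, had 5.72, 10.2 and 13.3 CPM in E18 DKO and 21.6, 16.6 and 25.4 CPM in the E18 WT-labelled libraries (log2 fold change -1.13 ± 0.29, edgeR adjusted p = 0.0106). Neither gene overlapped between the groups. The ratio of ligand to receptor counts was 4.78, 2.60 and 1.32 in E18 DKO, and it was below 1 in all 9 other libraries, at 0.395 to 0.776 in the E18 WT-labelled libraries, 0.244 to 0.377 in E12 DKO and 0.274 to 0.391 in E12 WT. The gene pairs for these ratios were chosen after their values had been seen, and the ratios carry no test.

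**Figure D3:**
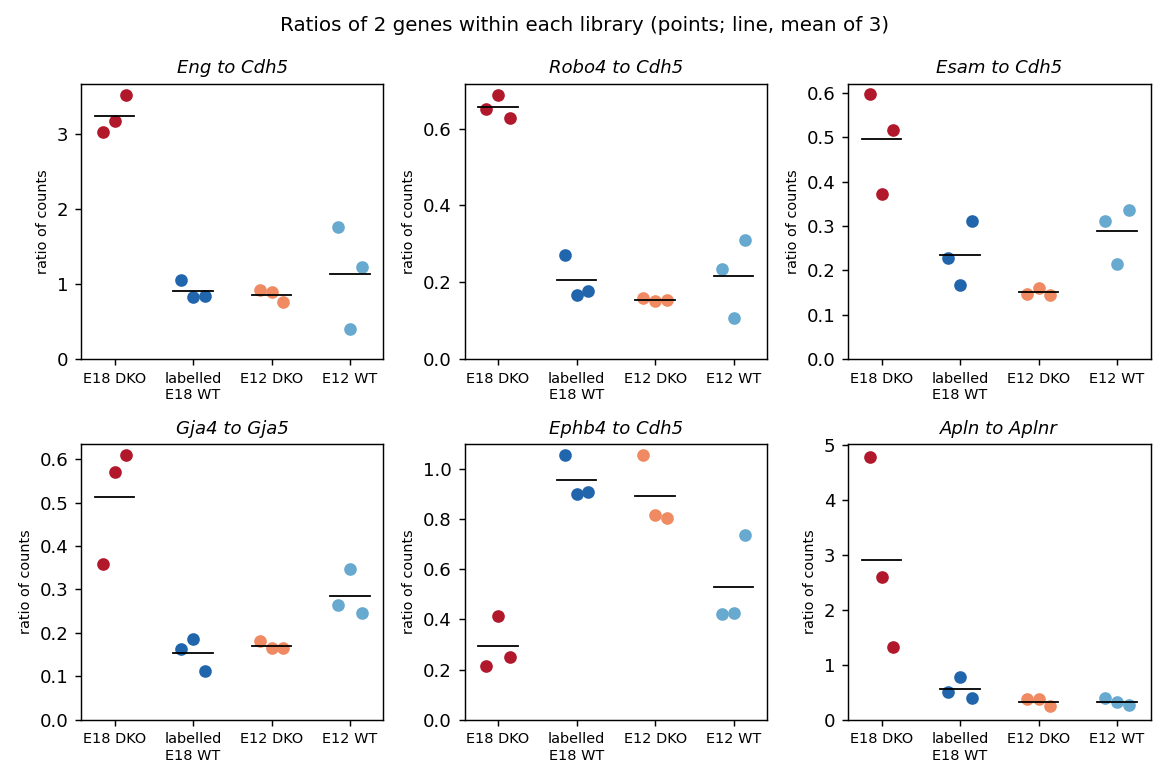
Ratios of the counts of 2 genes within a library for 6 pairs (points, 1 per library; line, mean of the 3 libraries of a group; each axis starts at 0). The ratios of Eng, Robo4 and Esam to Cdh5 are highest in E18 DKO, that of Ephb4 to Cdh5 is lowest there, and that of Apln to Aplnr is above 1 in E18 DKO and in no other group.

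The lymphatic genes did not move together. Lyve1, the hyaluronan receptor of lymphatic endothelium and of some macrophages, had 154.5, 199.6 and 133.1 CPM in E18 DKO and 50.7, 51.9 and 58.5 CPM in the E18 WT-labelled libraries. It was 3.02-fold higher (log2 fold change 1.60 ± 0.19, edgeR adjusted p = 0.000213). Prox1, the transcription factor that specifies lymphatic endothelium and is also made by other epithelial and liver cells, was low throughout, with 102, 187 and 35 reads in E18 DKO and 49, 48 and 41 reads in the E18 WT-labelled libraries. These correspond to 5.61, 7.98 and 1.91 CPM and to 1.85, 1.41 and 1.68 CPM, so that E18 DKO 3 barely exceeded the highest of the other group. The log2 fold change of Prox1 was 1.65 ± 0.51 (edgeR adjusted p = 0.0235), and the call was lost without E18 DKO 1 or 2 or without any 1 of the E18 WT-labelled libraries (adjusted p 0.0549 to 0.1). Mmrn1, a multimerin stored in platelets and lymphatic endothelium, went the other way. It had only 5, 3 and 9 reads in E18 DKO against 39, 63 and 53 reads in the E18 WT-labelled libraries, or 0.275, 0.128 and 0.49 CPM against 1.47, 1.85 and 2.17 CPM. Its log2 fold change was -2.62 ± 0.54 (edgeR adjusted p = 0.003), and it was between -3.18 and -2.24 over the leave-one-out fits. Pdpn, podoplanin of lymphatic endothelium, mesothelium and epithelia, overlapped between the groups, with 67.7, 78.3 and 32.7 CPM in E18 DKO and 45.2, 45.2 and 23.97 CPM in the E18 WT-labelled libraries (log2 fold change 0.64 ± 0.66, adjusted p = 0.454).

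Marker lists of other cell types that share these lymphatic markers were set beside them. Of 17 macrophage genes, 6 were higher and 3 lower (52.9% called, beside 42.3% of all tested genes), and 9 had a positive log2 fold change, with a median of 0.22. The 3 lower genes, named after their values were seen, were Adgre1, Mrc1 and Timd4. The summed level of the list was 1053 to 1464 CPM in E18 DKO and 492.3 to 667.96 CPM in the E18 WT-labelled libraries. Csf1r, the macrophage growth factor receptor, made up much of that sum, with 588.3 to 804.04 CPM in E18 DKO and 166.3 to 210.2 CPM in the E18 WT-labelled libraries. It had a log2 fold change of 1.85 ± 0.34 (edgeR adjusted p = 0.00179), and the ratio of Lyve1 to Csf1r counts overlapped, at 0.166 to 0.339 in E18 DKO and 0.241 to 0.352 in the E18 WT-labelled libraries. The part of macrophages in the Lyve1 value was not tested. Of 11 megakaryocyte and platelet genes, which bear on Mmrn1 and Vwf, 1 was higher and 3 were lower (36.4% called, below the 42.3% of all tested genes). Only 3 of the 11 had a positive log2 fold change, beside 48.4% of all tested genes, and the median was -1.62. Their sums overlapped, at 64.4 to 98.9 CPM in E18 DKO and 47.7 to 102.3 CPM in the E18 WT-labelled libraries. Of 6 mesothelial genes, which bear on Pdpn, 5 were higher and 0 lower, beside 20.5% and 21.8% of all tested genes. They summed to 2057 to 3442 CPM in E18 DKO and 229.7 to 419.2 CPM in the E18 WT-labelled libraries. Their parts in these values were not tested. Ccl21a, a chemokine gene also looked up for lymphatic vessels, had 0 counts in all 12 libraries. Whether mature lymphatic endothelium was present was not tested.

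The scavenger receptors Stab1 and Stab2, of sinusoidal endothelium and, for Stab1, of tissue macrophages, were not called. Stab1 had 148.2, 87.002 and 148.6 CPM in E18 DKO and 114.3, 115.5 and 122.2 CPM in the E18 WT-labelled libraries, which overlapped, and its log2 fold change of 0.12 ± 0.31 (adjusted p = 0.765) became -0.24 under scaling by total counts alone. Stab2 was lower in all 3 E18 DKO libraries, at 37.7, 34.5 and 34.9 CPM against 51.7, 46.7 and 40.996 CPM, but missed the threshold (log2 fold change -0.38 ± 0.16, adjusted p = 0.073). The ratio of Stab2 to Lyve1 counts was 0.173 to 0.262 in E18 DKO and 0.701 to 1.02 in the E18 WT-labelled libraries.

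**Figure D4:**
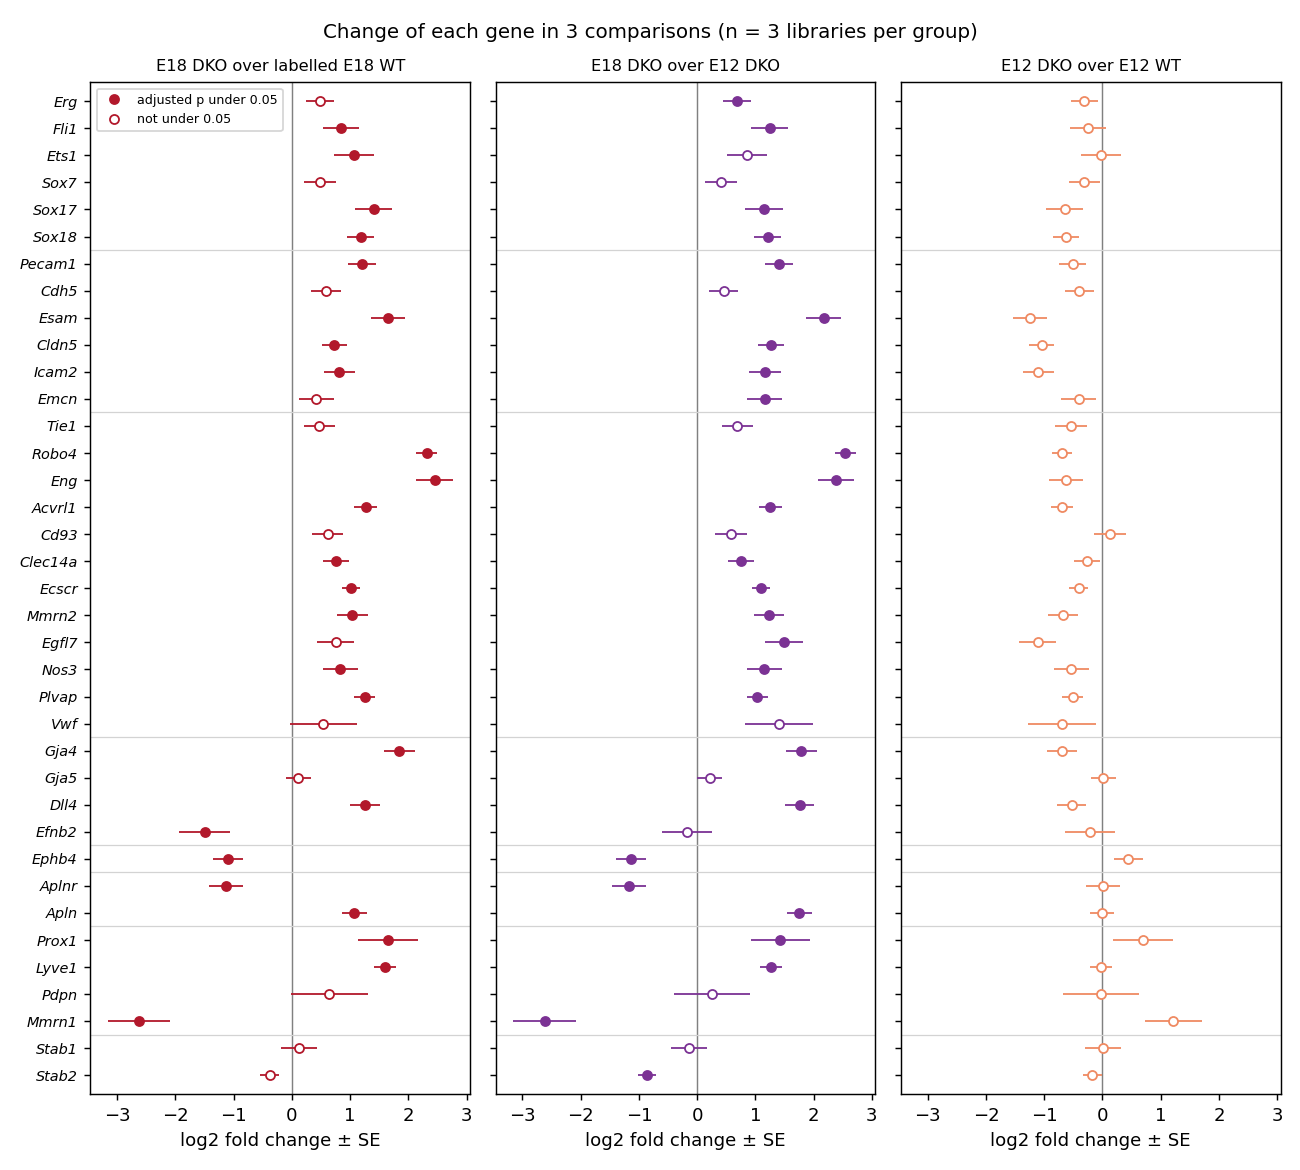
Log2 fold change with its standard error for the 37 genes (rows, in the order of their roles) in 3 comparisons with n = 3 libraries per group; filled points have an edgeR adjusted p under 0.05. Filled points number 25 for E18 DKO over the E18 WT-labelled libraries, 27 for E18 DKO over E12 DKO and 0 for E12 DKO over E12 WT, where most points lie left of 0.

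The second question was whether the genotypes also differed at E12. For E12 DKO against E12 WT, edgeR called 0 of the 37 genes, beside 0.353% of all tested genes. Of the 37, 12 had an unadjusted p under 0.05, beside 24.3%. The log2 fold changes of the 37 genes ranged from -1.25 to 1.22, so a gene that was not called is not shown to be unchanged. limma voom called 0, and the DESeq2 Wald test called 6, all lower: Esam, Cldn5, Icam2, Robo4, Acvrl1 and Egfl7. DESeq2 called 7.33% of all genes lower. The groups did not overlap for 15 of the 37 genes, 1 higher and 14 lower, beside 15.7% of all genes higher and 14.4% lower. The median log2 fold change was -0.41 over the 37 genes and -0.08 over all genes. It was -0.12 over the 37 genes under scaling by total counts alone, which raised the median of all genes by 0.30, and -0.24 without E12 WT 1. Summed over the 37 genes, the level was 1014.6 to 1160 CPM in E12 DKO and 1212 to 1479 CPM in E12 WT.

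Of the 6 junction and surface genes, Esam, Cldn5 and Icam2 had the largest E12 differences. Esam had 9.60, 10.7 and 11.6 CPM in E12 DKO and 26.6, 28.6 and 20.6 CPM in E12 WT (log2 fold change -1.25 ± 0.29, edgeR adjusted p = 0.0722). Cldn5 had 10.1, 8.58 and 11.9 CPM in E12 DKO and 22.2, 16.4 and 24.7 CPM in E12 WT (log2 fold change -1.05 ± 0.22, adjusted p = 0.0645). Icam2 had 7.53, 5.66 and 7.67 CPM in E12 DKO and 11.4, 15.5 and 17.9 CPM in E12 WT (log2 fold change -1.10 ± 0.27, adjusted p = 0.0767). None of the 3 overlapped between the groups and none was called. Robo4, Acvrl1 and Egfl7 likewise lay lower in E12 DKO without overlap, with log2 fold changes of -0.70 ± 0.17, -0.70 ± 0.19 and -1.11 ± 0.32 (adjusted p = 0.0767, 0.089 and 0.0959). Mmrn1 was the 1 gene higher in E12 DKO without overlap, with 52, 53 and 71 reads against 8, 31 and 15 reads in E12 WT (log2 fold change 1.22 ± 0.49, adjusted p = 0.166). Without E12 WT 1, the library with few embryonic globins, 6 genes were called lower in E12 DKO, beside 10.2% of all genes. They were Esam, Cldn5, Icam2, Robo4, Egfl7 and Plvap, with edgeR adjusted p of 0.0139 to 0.0386. Without E12 WT 2 there were 2 lower calls, beside 179 of 18681 genes called in either direction, 43 of them higher. Without E18 WT-labelled library 3 there was 1, beside 67 of 18598 genes called, 19 of them higher. Lyve1, Aplnr, Apln, Gja5 and Stab1, by contrast, had nearly equal group means, such as 67.7 ± 9.06 CPM in E12 DKO and 69.02 ± 11.7 CPM in E12 WT for Lyve1 (SD, n = 3 each).

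The difference between the genotype effects of the labelled stages was tested directly with the interaction term of the same model. It was called for 23 of the 37 genes, 20 higher and 3 lower, beside 41.9% of all tested genes (21.6% higher and 20.3% lower). All 20 higher genes had a positive estimate at E18 and a negative one at E12, but 0 of them were called at E12. The E12 log2 fold changes of Apln and Lyve1 were close to 0, at -0.006 ± 0.21 and -0.03 ± 0.19. Esam, with the E12 values given above, had a difference of 2.89 ± 0.41 in log2 fold change (edgeR adjusted p = 0.000521). Robo4 and Eng had differences of 3.01 ± 0.25 and 3.07 ± 0.43 (edgeR adjusted p = 7.84e-05 and 0.000465). The 3 lower genes were Ephb4, Aplnr and Mmrn1, at -1.54 ± 0.36, -1.14 ± 0.41 and -3.84 ± 0.73 (edgeR adjusted p = 0.00594, 0.0444 and 0.00214). The Aplnr call was lost in 8 and that of Cdh5 in 9 of the 12 leave-one-out fits (adjusted p 0.0654 to 0.106 and 0.0559 to 0.105). For Aplnr these were the fits without E12 DKO 2 or 3, E12 WT 1 or 2, E18 DKO 1 or 2, or E18 WT-labelled library 1 or 3, and for Cdh5 those without any 1 E12 DKO library, E12 WT 2, any 1 E18 DKO library, or E18 WT-labelled library 1 or 2. Clec14a lost it without E12 DKO 1 or 2, E18 DKO 1, or E18 WT-labelled library 1 or 2 (adjusted p 0.0553 to 0.0633), and Nos3 without E12 DKO 2, E18 DKO 3 or E18 WT-labelled library 1 (adjusted p 0.0532 to 0.0635). Scaling by total counts alone lowered the median difference of all genes by 0.66 and that of the 37 genes to 0.43, against 1.10 with TMM. Under it the difference was called for 16 genes higher and 5 lower, beside 12.0% and 35.5% of all genes, and the calls of Cdh5, Clec14a, Nos3 and Apln were lost (edgeR adjusted p 0.202 to 0.491). Since the E18 WT-labelled libraries carry embryonic globins, this difference does not separate stage from genotype.

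The third comparison followed the knockout from E12 to E18, where the globin share differed with the stated ages. In E18 DKO against E12 DKO, 23 genes were higher and 4 lower, beside 46.0% of all tested genes (23.2% higher and 22.8% lower), and the median log2 fold change was 1.15 over the 37 genes against -0.02 over all genes. Scaling by total counts alone gave 19 higher and 4 lower genes, beside 15.5% and 32.8% of all genes, with a median of 0.79. Under it Erg, Sox17, Clec14a and Prox1 lost the call (edgeR adjusted p 0.0632 to 0.253). This comparison shares the E18 DKO libraries with the genotype comparison at E18, so the values of both are not independent. Dll4 had 24.6, 14.8 and 20.9 CPM in E18 DKO and 6.11, 6.00 and 5.71 CPM in E12 DKO (log2 fold change 1.76 ± 0.25, edgeR adjusted p = 0.000412). Apln showed a change of the same size, with 27.3, 26.4 and 17.5 CPM in E18 DKO and 6.74, 7.9995 and 6.34 CPM in E12 DKO (log2 fold change 1.76 ± 0.22, edgeR adjusted p = 0.00018). Egfl7 had 53.3, 30.6 and 64.7 CPM in E18 DKO against 17.8, 17.6 and 17.6 CPM in E12 DKO (log2 fold change 1.49 ± 0.33, edgeR adjusted p = 0.00392). All 3 groups of values were free of overlap. Egfl7, Emcn and Erg were the 3 genes called higher here and not at E18 between genotypes, with Emcn at 1.16 ± 0.30 and Erg at 0.68 ± 0.24 on the log2 scale (edgeR adjusted p = 0.00951 and 0.0357).

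Robo4 was 5.82-fold, Eng 5.21-fold and Esam 4.50-fold higher in E18 DKO than in E12 DKO (log2 fold changes 2.54 ± 0.18, 2.38 ± 0.31 and 2.17 ± 0.30). Cdh5 differed by less, with 99.2, 97.9 and 93.6 CPM in E18 DKO and 65.1, 66.8 and 80.3 CPM in E12 DKO (log2 fold change 0.45 ± 0.25, adjusted p = 0.158). The count of Eng relative to Cdh5 was accordingly 3.03 to 3.51 in E18 DKO and 0.76 to 0.917 in E12 DKO. The 4 lower genes were Ephb4, Aplnr, Mmrn1 and Stab2. Ephb4 had 21.2, 40.3 and 23.5 CPM in E18 DKO and 68.6, 54.3 and 64.5 CPM in E12 DKO (log2 fold change -1.14 ± 0.25, edgeR adjusted p = 0.0042). Stab2 had 37.7, 34.5 and 34.9 CPM in E18 DKO and 59.4, 57.5 and 78.02 CPM in E12 DKO (log2 fold change -0.86 ± 0.16, edgeR adjusted p = 0.00154). Lyve1, its companion on sinusoidal and lymphatic endothelium, was higher at E18 instead, at 1.26 ± 0.19 (edgeR adjusted p = 0.000525). Efnb2 was not called between these groups, with 20.2 to 26.8 CPM in E18 DKO and 20.2 to 34.1 CPM in E12 DKO (adjusted p = 0.756). Of the 27 calls, 23 held in all leave-one-out fits. Sox17 lost it without E18 DKO 3 (adjusted p = 0.0558), Erg without E12 DKO 1 or 2 or E18 DKO 1 or 3 (0.0789 to 0.122), Clec14a without E12 DKO 1 or 2 or E18 DKO 1 (0.0596 to 0.0743), and Prox1 without E12 DKO 2 or 3, E18 DKO 1 or 2, or E18 WT-labelled library 1 or 2 (0.0508 to 0.163).

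Between the E18 WT-labelled libraries and E12 WT, edgeR called 0 of the 37 genes, beside 0.953% of all genes, with 14 genes at an unadjusted p under 0.05, beside 18.1%. limma voom called 0, and DESeq2 called 1 higher (Apln) and 3 lower (Acvrl1, Plvap and Stab2), beside 2.51% and 4.23% of all genes. Plvap had 70.8, 81.6 and 68.7 CPM in the E18 WT-labelled libraries and 95.7, 141.1 and 129.2 CPM in E12 WT, without overlap (log2 fold change -0.73 ± 0.18, edgeR adjusted p = 0.0827). Apln had 10.9, 12.9 and 10.1 CPM in the E18 WT-labelled libraries and 7.22, 6.99 and 6.94 CPM in E12 WT (log2 fold change 0.68 ± 0.21, adjusted p = 0.143). E12 DKO and the E18 WT-labelled libraries had similar embryonic shares of beta-globin, but their globin levels differed. Primitive erythroid genes summed to 697.9 to 2957 CPM in E12 DKO and 6049 to 7711 CPM in the E18 WT-labelled libraries. Definitive beta-globin genes summed to 120.1 to 432.7 CPM and 678.1 to 2331 CPM. Setting E12 DKO against the E18 WT-labelled libraries also gave 0 calls among the 37 genes with edgeR, limma voom and DESeq2. In edgeR, 0.187% of all genes were called. At an unadjusted p under 0.05 there were 6 genes (Cldn5, Emcn, Egfl7, Efnb2, Apln and Stab2), beside 9.13% of all genes. The levels of Eng, for example, were 59.7, 59.4 and 61.04 CPM in E12 DKO and 53.5, 56.3 and 61.9 CPM in the E18 WT-labelled libraries. The median log2 fold change was -0.03 over the 37 genes and -0.02 over all genes.

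Other genes of vessel formation, from a list of 41 with 40 tested, were mixed at E18: 12 were higher and 6 lower in E18 DKO than in the E18 WT-labelled libraries (45% called, near the 42.3% of all tested genes), with a median log2 fold change of 0.52. The 4 with the lowest p were Notch4, Nrp1, Pgf and Vegfc. Notch4, the Notch receptor of endothelium, had 58.8, 50.1 and 50.3 CPM in E18 DKO and 10.7, 12.5 and 11.7 CPM in the E18 WT-labelled libraries (log2 fold change 2.19 ± 0.21, edgeR adjusted p = 9.23e-05). Nrp1, a co-receptor of VEGF and semaphorins that is also made by many other cells, had 15.7, 14.97 and 15.7 CPM in E18 DKO and 46.7, 75.3 and 93.03 CPM in the E18 WT-labelled libraries (log2 fold change -2.21 ± 0.27, edgeR adjusted p = 0.000219). The groups of both genes lay far apart. The growth factors Pgf and Vegfc, ligands of VEGF receptors on blood and lymphatic endothelium, were higher at log2 fold changes of 3.35 ± 0.47 and 1.77 ± 0.27 (edgeR adjusted p = 0.000437 and 0.000679). Of 12 tested lymphatic support genes, 3 were higher (Ccbe1, Piezo1 and Adm) and 1 lower (Reln), or 33.3% called beside 42.3% of all tested genes. Ccbe1, needed to activate VEGF-C, had 21.99, 36.6 and 28.7 CPM in E18 DKO against 9.23, 10.3 and 8.21 CPM in the E18 WT-labelled libraries (log2 fold change 1.65 ± 0.44, edgeR adjusted p = 0.0119). Of 14 pericyte and smooth muscle genes, 6 were higher and 1, Rgs5, was lower (50% called, beside 42.3% of all tested genes). Their sums overlapped, at 849.6 to 1427 CPM in E18 DKO and 445.1 to 870.8 CPM in the E18 WT-labelled libraries.

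Promoters of 19 of the 37 genes were found in a RefSeq table of GRCm38.p6, and the 250 bases before each start site, for genes with several start sites the one with the lowest coordinate, were searched on both strands. The ETS core AGGAAG was present in 10 of 19 promoters (52.6%) and in 29.2% of 27025 promoters of all genes. The SOX core ACAATG was in 10.5% against 10.9%, and the GATA core AGATAA in 5.26% against 10.2%. On the minus strand, the lowest coordinate can be a start inside the gene. The Erg window used, chr16:95459349-95459598, was such a case and held 1 match of each motif, including the only GATA match. The Erg window at the other end, chr16:95586594-95586843, held 0 of each. The 3 motifs do not contain one another, and a match is a description of the letters only. Shown here are the promoters of the 2 genes with the largest rise, Eng and Robo4, of the arterial Gja4, which rose, and of the venous Ephb4, which fell, 5′ to 3′ on the strand of the gene; capitals mark the ETS core or its reverse complement. The windows are chr2:32646345-32646594 (plus strand) for Eng, chr9:37401722-37401971 (plus) for Robo4, chr4:127314040-127314289 (minus) for Gja4 and chr5:137349859-137350108 (plus) for Ephb4. Eng held 2 matches, the nearer starting 6 bases before the start site, Robo4 held 1, and Gja4 and Ephb4 held 0.
Eng: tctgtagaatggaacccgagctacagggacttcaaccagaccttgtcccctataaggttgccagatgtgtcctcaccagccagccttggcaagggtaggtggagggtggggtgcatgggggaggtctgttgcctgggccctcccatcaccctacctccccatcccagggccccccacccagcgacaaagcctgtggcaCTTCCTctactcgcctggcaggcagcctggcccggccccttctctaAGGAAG
Robo4: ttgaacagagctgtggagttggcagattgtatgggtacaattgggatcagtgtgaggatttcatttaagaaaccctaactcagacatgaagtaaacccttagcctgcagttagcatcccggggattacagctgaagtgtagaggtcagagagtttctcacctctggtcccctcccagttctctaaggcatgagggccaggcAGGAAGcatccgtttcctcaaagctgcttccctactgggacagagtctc
Gja4: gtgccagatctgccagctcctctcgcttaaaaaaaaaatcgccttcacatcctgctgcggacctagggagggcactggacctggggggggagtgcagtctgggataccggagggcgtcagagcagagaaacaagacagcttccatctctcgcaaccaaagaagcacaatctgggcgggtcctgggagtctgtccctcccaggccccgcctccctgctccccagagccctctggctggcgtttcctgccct
Ephb4: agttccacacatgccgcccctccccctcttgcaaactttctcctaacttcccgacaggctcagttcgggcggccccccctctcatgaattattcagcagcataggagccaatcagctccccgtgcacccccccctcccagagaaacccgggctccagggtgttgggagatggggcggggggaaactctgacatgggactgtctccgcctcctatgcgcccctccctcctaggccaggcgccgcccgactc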

How the data were processed

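RNA from fetal membranes was measured in 12 libraries, 3 in each of 4 groups. The deposited values are raw read counts per gene, per the file headers. Per the labels' protocols, frozen ground membranes gave RNA for stranded mRNA libraries, and per the submitters' processing notes Trimmomatic 0.36, STAR 2.4.2a and featureCounts (Subread 1.5.0, strand option 2) were used with GRCm38 and Ensembl release 86. Counts of 11 libraries were read from their own deposited files. Those of E12 DKO 1, whose own file holds no count column, came from its named column of the series table. The E18 WT columns of that table are numbered 2 to 4 and the sample titles 1 to 3, so libraries are numbered by title and these columns served only as a check, in which each of the 11 files equalled 1 column. Totals ranged from 19967593 to 33065424 counts.

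From these counts, TMM-scaled CPM were computed, and edgeR 4.0.16 (R 4.3.3) fitted 1 quasi-likelihood model to all 12 libraries and the 18153 genes that passed filterByExpr, with 8 residual degrees of freedom. P-values were adjusted by Benjamini-Hochberg over all of them, with a threshold of 0.05. Standard errors are the log2 fold change divided by the root of the F statistic. The procedure was tested on simulated data, drawn from 1 mean per gene over all groups. Of 18153 genes, 100 were changed 2-fold and 100 were changed 4-fold. For E12 DKO against E12 WT it detected 7% of genes given a 2-fold change and 53% of those given a 4-fold change. For E18 DKO against the E18 WT-labelled libraries these shares were 11% and 52%. With so few changed genes the adjustment is stricter than in the real E18 comparison, where 42.3% of genes were called. These shares therefore do not give the detection rate in the real data. Among unchanged genes, 0.0228% passed at E12 and 0.0341% at E18. Alternatives were limma 3.58.1 voom, DESeq2 1.42.0, other scalings and filters, a replicate block, only the groups compared, and libraries left out. Figures were drawn with matplotlib 3.10.9. All 37 members are named, with up to 4 genes of lowest adjusted p per other list and some others as stated. The members and lists were chosen with earlier results of these data known. Among the 37 genes, 12 overlap another gene on the opposite strand and 1 (Egfl7) on the same strand.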

Additional observations from a re-analysis of the deposited data

Results flagged for a closer look

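For 23 of the 37 genes the genotype effect at E18 (E18 DKO over the E18 WT-labelled libraries) differed from that at E12 (E12 DKO over E12 WT) by the interaction term of the edgeR model, with adjusted p of 7.84e-05 to 0.0444, beside 41.9% of all tested genes. Under scaling by total counts alone, the calls of Cdh5, Clec14a, Nos3 and Apln were lost (adjusted p 0.202 to 0.491). The values are differences between the log2 fold changes, E18 minus E12. Among receptors and vessel-wall genes they were 3.07 for Eng, 3.01 for Robo4, 1.97 for Acvrl1, 1.87 for Egfl7, 1.76 for Plvap, 1.72 for Mmrn2, 1.43 for Ecscr, 1.36 for Nos3 and 1.02 for Clec14a. Among junction and surface genes they were 2.89 for Esam, 1.92 for Icam2, 1.77 for Cldn5, 1.72 for Pecam1 and 0.99 for Cdh5. The SOXF factors Sox17 and Sox18 had 2.05 and 1.81, and the arterial genes Gja4 and Dll4 had 2.54 and 1.78. Apln had 1.08 and Lyve1 1.63. The difference was negative for Mmrn1 at -3.84, Ephb4 at -1.54 and Aplnr at -1.14. The E18 WT-labelled libraries carried mostly embryonic beta-globin, and its part in these differences was not tested.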

How the results depend on the processing

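For E18 DKO against the E18 WT-labelled libraries, RLE size factors, DESeq2, limma voom and a filter of 1 CPM gave 21 higher and 4 lower genes, no filter gave 18 and 4, and leaving out 1 library gave 14 to 22 higher and 3 to 4 lower. Of all genes, DESeq2 called 23.0% higher and 24.1% lower. RLE size factors called 7678 of 18153 genes (3782 higher) and limma voom 7645 of 18153 (3855 higher). The 1 CPM filter called 7199 of 16055 (3559 higher) and no filter 7260 of 30511 (3514 higher). Higher calls over all genes were fewest without E18 WT-labelled library 2, with 6005 of 18694 called (2781 higher). They were most without E12 WT 1, with 9452 of 18723 called (4635 higher). For E12 DKO against E12 WT, 6 genes were lower with DESeq2, beside 7.33% of all genes. Without E12 WT 1 and E18 WT-labelled library 3 together, 1 was higher and 6 were lower, beside 8.33% and 11.9% of all genes. When 1 library was left out, 0 to 6 were lower, with the 6 found without E12 WT 1, beside 10.2% of all genes. The difference of the genotype effects had 16 higher and 5 lower genes under scaling by total counts alone, beside 12.0% and 35.5% of all genes. A fit of only the groups compared could not be made for it. For the E18 WT-labelled libraries against E12 WT, DESeq2 called 1 gene higher and 3 lower, beside 2.51% and 4.23% of all genes. Without both libraries together 2 were lower, beside 3.33% of all genes. When 1 library was left out, 0 to 2 were lower, with the 2 found without E12 WT 1, beside 5.61% of all genes. Signs turned for genes that were not called. In E18 DKO against the E18 WT-labelled libraries, scaling by total counts alone gave -0.26 for Gja5 and -0.24 for Stab1, and leaving out 1 library gave -0.076 to 0.221 for Gja5, the lowest without E18 WT-labelled library 1. In E18 DKO against E12 DKO, the same scaling gave -0.13 for Gja5 and -0.074 for Pdpn, and leaving out 1 library gave -0.355 to 0.018 for Efnb2, positive without E12 DKO 2, and -0.266 to 0.069 for Stab1, positive without E18 DKO 2. The cause was not tested. Replicate numbers did not pair the libraries (correlations of deviations -0.18 to 0.29), and with a replicate block the counts were 22 higher and 4 lower at E18, 0 and 0 at E12, 21 and 3 for the difference, and 23 and 4 for E18 DKO against E12 DKO. Of the 18153 tested genes, 7489, 5, 7294 and 8201 were called with that block in these 4 comparisons. Depth limits Prox1 and Mmrn1 most, with as few as 12 and 3 reads in a library.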
